A study of Mus musculus with 8 samples.

Results

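The cells described here are those that a mitochondrial filter removed from a single-cell RNA-seq data set of mouse colon. They were selected on their measured values: at least 631 unique molecular identifiers (UMIs, 1 per captured RNA molecule), at least 399 genes, no UMI of a hemoglobin gene, and more than 5% of UMIs from mitochondrially encoded genes. Of 5947 barcodes, 3594 passed the first 3 criteria, and 381 of these exceeded 5% and are called high-mitochondrial cells, while the other 3213 are called kept cells. The cells were CD11b+ and CCR2+ and/or CD64+, sorted from the colonic lamina propria, and were counted with a 3' droplet assay. All 8 mice were CD98hcΔCX3CR1 female littermates of 6 to 12 weeks, which carry loxP-flanked CD98hc alleles and a tamoxifen-inducible Cre with a YFP reporter under the Cx3cr1 promoter, active in monocytes and macrophages. The 4 control mice (numbered 1, 2, 3 and 4) received corn oil, and the 4 cKO mice (numbered 5, 6, 7 and 8) received tamoxifen, 100 µl of 20 mg/ml in corn oil, both on 5 consecutive days, with the readout on day 7. Tamoxifen was given to the cKO mice only, so its effect and that of the deletion cannot be told apart. The 8 libraries were wells of 1 cartridge, and 26 barcodes occurred in 2 wells, among them 3 high-mitochondrial and 24 kept cells.

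The mitochondrial genome encodes 13 proteins, all subunits of the respiratory chain or of ATP synthase. Their mRNAs are transcribed inside the organelle and most are polyadenylated there, so that these are captured beside nuclear-encoded mRNAs. The share of UMIs from these genes is a common quality criterion for single cells, since damaged cells can keep RNA inside the organelle, and it also differs between cell types with their respiratory activity. Intestinal macrophages, which arise from Ly6c-positive monocytes, express the complement genes C1qa, C1qb and C1qc, whereas monocytes express Chil3 and Hp. Dendritic cells express Flt3, type 1 dendritic cells Xcr1, T cells the Cd3 genes, and fibroblasts Dcn.

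The mitochondrial share of the 381 cells ran from 5.01% to 41.2%, with a median of 7.95% and quartiles of 6.32% and 11.5%. It exceeded 10% in 128 of them and 20% in 14. Among kept cells the median was 1.58%. At the limit, the 43 cells between 5.01% and 5.49% had a median of 1659 non-mitochondrial UMIs and 36875 Malat1 CPM (counts per 1000000 non-mitochondrial UMIs), and the 44 kept cells between 4.51% and 4.98% had 1874.5 UMIs and 32135 CPM.

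High-mitochondrial cells were shallow. Per mouse, their median number of non-mitochondrial UMIs was 1159, 1497, 1112 and 1103 in control mice 1 to 4 and 1441, 1102, 1027 and 1218 in cKO mice 5 to 8. The corresponding medians of kept cells were 4700, 5459, 5424 and 4944 in control mice and 5045, 4081, 5087 and 4786 in cKO mice. Every kept median was thus 3.5 to 4.95 times the high-mitochondrial median of the same mouse, with means over mice of 1207 ± 171 against 4941 ± 440 UMIs (SD, n = 8). Non-mitochondrial UMIs are part of the denominator of the selection, so this is a description and not a test. The number of mitochondrial UMIs was less different, with medians per mouse of 97.5 to 177 in high-mitochondrial and 64 to 98 in kept cells. Among cells under 2000 UMIs, the 308 high-mitochondrial cells had a median of 100 mitochondrial and 1021.5 non-mitochondrial UMIs, and the 586 kept cells had 19 and 1238, a difference whose direction the 5% limit fixes.

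The high-mitochondrial share did not differ between the conditions beyond the spread between mice. It was 10.4% (84 of 808 cells), 9.17% (51 of 556), 13.3% (13 of 98) and 10.9% (67 of 616) in control mice 1 to 4. In cKO mice 5 to 8 it was 11.7% (11 of 94), 14.9% (61 of 410), 9.02% (48 of 532) and 9.58% (46 of 480). The groups overlapped, and the highest single share was that of cKO mouse 6. Averaged over the mice of a group, it reached 10.9% ± 1.72 for control and 11.3% ± 2.65 for cKO (SD, n = 4 each). These averages lay 0.369 percentage points apart (2-sided exact permutation test over 70 arrangements, p = 0.8, where the smallest possible p is 0.0286). The median share within the selected cells came to 7.83% ± 0.489 for control and 7.79% ± 0.938 for cKO (SD, n = 4 each; exact permutation p = 0.914). In kept cells, by contrast, the median mitochondrial share averaged 1.65% ± 0.058 for control and 1.42% ± 0.0798 for cKO (SD, n = 4 each), and the groups did not overlap (exact permutation p = 0.0286, adjusted p = 0.171 over the 6 measures compared between conditions).

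**Figure D1:**
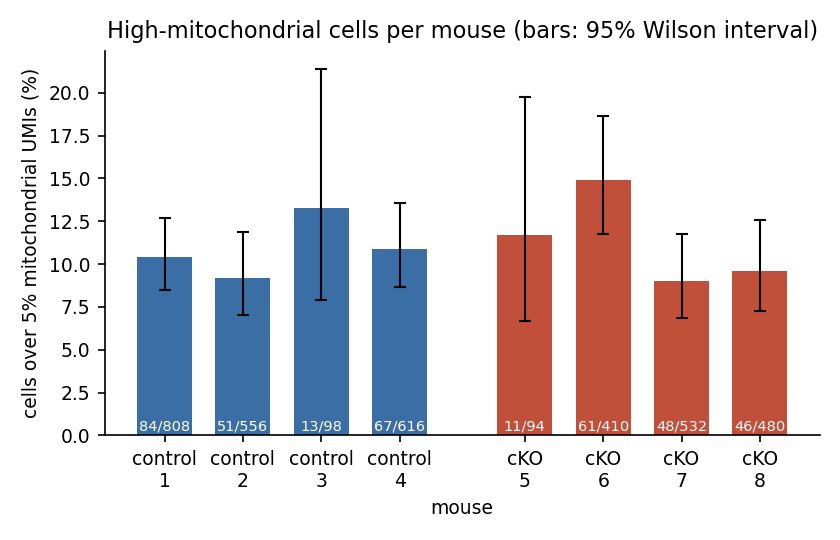
Share of cells over 5% mitochondrial UMIs in each mouse (y axis, percent; bars blue for control and red for cKO mice; error bars 95% Wilson intervals, which cover counting error only; the numbers in the bars are high-mitochondrial and all cells). The shares run from 9.02% to 14.9%, and the groups overlap.

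No mitochondrial gene was called as over- or under-represented within the mitochondrial RNA. Of the mitochondrial UMIs of high-mitochondrial cells, mt-Atp6 (a subunit of ATP synthase, chrM 7927 to 8607 in GRCm38) gave 25.7% ± 1.69, mt-Co3 18% ± 1.23 and mt-Co1 16.1% ± 1.54 (both subunits of cytochrome c oxidase), and mt-Nd1 (complex I) 11.7% ± 0.808 (SD, n = 8 mice). In kept cells of the same mice these genes gave 25.8% ± 1.46, 17.7% ± 1.06, 16.3% ± 1.27 and 11.5% ± 0.887. The lowest share was that of mt-Nd6, the single gene of the 13 on the other strand (chrM 13552 to 14070), with 13 UMIs in all high-mitochondrial cells. The difference between the classes was between -0.236 (mt-Co1) and 0.231 (mt-Co3) percentage points, and 0 of 13 genes passed an adjusted p of 0.05 (2-sided exact sign-flip test over 8 mice, adjusted p from 0.905 to 0.938). Between conditions, mt-Atp6 gave 24.4% in control and 27% in cKO high-mitochondrial cells, without overlap between the groups (exact permutation p = 0.0286, adjusted p = 0.371). Here 0 of 13 genes passed. This p is the smallest that the arrangements allow, so no single gene could pass on its own after adjustment over 13 genes. The mt-Atp8 and mt-Atp6 genes overlap, so reads of one may be counted under the other.

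**Figure D2:**
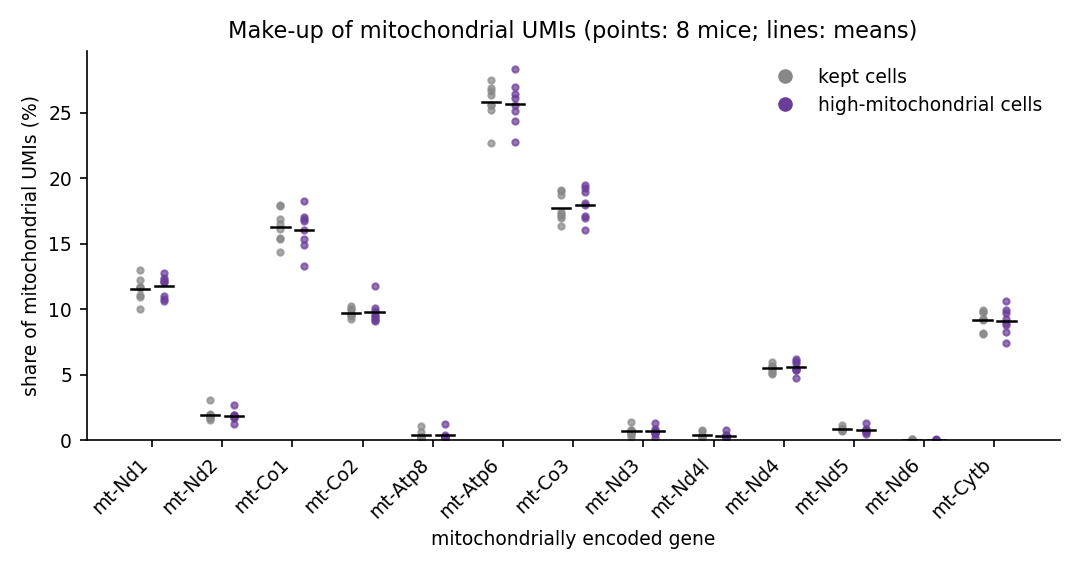
Share of each of the 13 mitochondrially encoded genes in all mitochondrial UMIs (y axis, percent), per mouse (points, n = 8) with the mean (line), for kept cells (grey) and high-mitochondrial cells (violet). The means of the classes differ by at most 0.236 percentage points for any gene.

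The cells were grouped into 9 clusters on non-mitochondrial genes, and one of them held most of the high-mitochondrial cells. Cluster 6 contained 214 of the 381, and in the mice with at least 10 of its cells the high-mitochondrial share in it was 54.7%, 41.2%, 44.4% and 47.2% in control mice 1 to 4 and 58%, 61.8% and 52.9% in cKO mice 6 to 8. In the remaining cells of the same mice it was between 3.7% and 6.28%. The share was therefore 51.5% ± 7.46 in cluster 6 and 5.51% ± 0.981 outside it (SD, n = 7 mice), higher in 7 of 7 mice (exact sign-flip test, p = 0.0156, adjusted p = 0.0281 over 9 clusters). The size of this excess of 45.9 percentage points depended on the clustering: it was 21.5 (adjusted p = 0.0469) in the best matching cluster when kept cells were clustered alone, 37.8 (adjusted p = 0.0352) without the genes called between conditions, and 38.9 with graph clustering, where it did not pass (adjusted p = 0.0508). Graph clustering gave 15 clusters, and the adjusted p depends on the number of clusters as well as on the excess. The cells of cluster 6 were shallow, with a median of 1331 UMIs. Its leading genes included Cebpb, Jund, Ier5, Tmem259, Dusp2, Fn1 and Hes1 together with Gm21887 and Gm47283. Too few of its leading genes were markers of any 1 cell type, and the cluster was left unnamed. The share in cluster 6 averaged 46.9% for control and 57.6% for cKO, and the gap of 10.7 percentage points did not pass (exact permutation p = 0.0857 over 35 arrangements, adjusted p = 0.267).

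Cluster 5, with a median of 1160 UMIs, was macrophage-like (Pf4, Folr2, Fcrls and Ms4a7 among its 10 leading genes) and held 14 high-mitochondrial cells of 270. Its share was 4.68% ± 4.75 against 11.8% ± 2.33 in the other cells (SD, n = 8; lower in 7 of 8 mice, exact sign-flip p = 0.0156, adjusted p = 0.0281), and the difference did not pass with graph clustering (adjusted p = 0.0508) or with kept cells clustered alone (adjusted p = 0.0527). Those other cells included cluster 6, and the mean share outside cluster 6 was 5.51% (n = 7 mice). Malat1 was at 2501 CPM in the kept cells of cluster 5 and 27669 CPM in those of cluster 6, with a median of 1169 and 1778 UMIs.

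The remaining high-mitochondrial cells lay in named and unnamed clusters, most of them in cluster 2 and cluster 3. Cluster 3, monocyte-like (Chil3, Mgst1, F13a1 and Ly6c2 among its leading genes), held 40 of 730 cells, cluster 4, macrophage-like (C1qa, C1qb, C1qc, Apoe), 21 of 621, and cluster 8, dendritic cell-like (Cd209a, Xcr1, Itgae, Flt3), 11 of 513. In these 3 clusters the share was below that of the other cells in every mouse tested, with means of 5.25%, 2.64% and 2.2% (adjusted p = 0.0281 each, exact sign-flip test). For every cluster but cluster 6, the other cells included those of cluster 6, which raised their share. Outside cluster 6 the mean share was 5.51% (n = 7 mice), and no cluster was tested against those cells alone. These calls also depended on the clustering. With 12 clusters the share of cluster 3 was 4.68 percentage points above the rest (adjusted p = 0.273), and with graph clustering 12.2 points below it (adjusted p = 0.0508). Its difference from the rest passed with kept cells clustered alone (-9.08 points, adjusted p = 0.0469). It also passed without the genes called between conditions (-9.34 points, adjusted p = 0.0352). The lower shares of clusters 4 and 8 did not pass under any of the 4 other clusterings (adjusted p from 0.0938 to 0.812 and from 0.0563 to 0.135). Cluster 2, unnamed and led by Ccl24, Saa3 and Il1rn, held 67 of 610 cells, and its share did not differ from the rest (9.82% ± 7.35 against 11% ± 2.85, SD, n = 8; adjusted p = 0.672). Cluster 1, lymphoid-like (Jchain, Cd79a, Cd3g), held 10 of 191 and cluster 7, stromal-like (Dcn, Col3a1), 4 of 90. Cluster 9, led by Dmkn, Il1a and Slpi, held 0 of 159, which allows a share of up to 1.89%. Taken as a share of all high-mitochondrial cells of a mouse, cluster 6 made up 56% ± 10.8, with 39.1% in the lowest and 69% in the highest mouse, whereas it made up 6.29% ± 3.21 of kept cells (SD, n = 8; higher in 8 of 8 mice, exact sign-flip p = 0.0078, adjusted p = 0.0176).

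**Figure D3:**
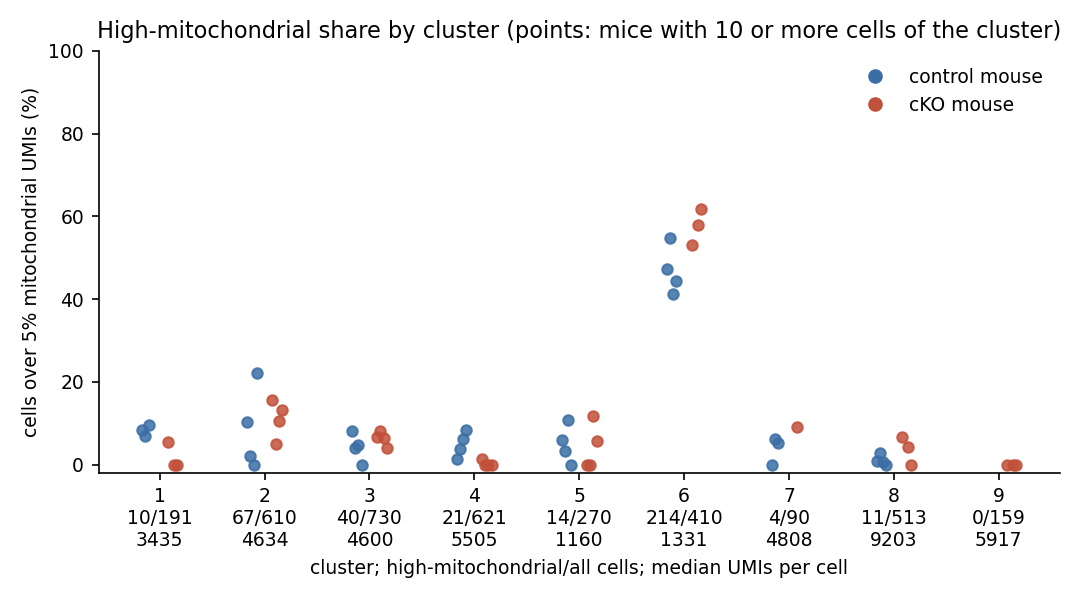
Share of cells over 5% mitochondrial UMIs in each of 9 clusters (y axis, percent), 1 point per mouse with at least 10 cells of the cluster (blue control, red cKO). Below each cluster number stand its high-mitochondrial and all cells and its median UMIs per cell. Cluster 6 lies between 41.2% and 61.8% and no other cluster exceeds 22.2% in any mouse.

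Droplets also take up free RNA, so the share of cells with a UMI of a marker was set beside that in a cell type that should lack it. At least 1 UMI of C1qa was found in 201 of the 381 cells (52.8%, median of 1172 non-mitochondrial UMIs) and in 61 of the 181 kept cells of lymphoid-like cluster 1 (33.7%, median of 3481). Thinned to 500 UMIs per cell, which left out 1 high-mitochondrial cell, these shares were 42.4% and 6.63%. Thinning takes a larger part of the UMIs of the deeper kept cells, so it can understate the free RNA in them. Hp, found in 74 cells, had shares of 19.4% and 12.2% at full depth and 11.6% and 1.1% after thinning. For Chil3, found in 44 cells, the shares were 11.5% and 4.97% at full depth and 6.05% and 0.552% after thinning. Flt3, found in 9 cells, had thinned shares of 1.05% and 1.1%, and Xcr1, found in 3, was at 0 in both after thinning, so neither stood above this background. Dcn was found in 21 cells, with 5.51% and 4.42% at full depth and 3.16% and 0.552% after thinning. Each of Cd3d, Cd3e and Cd3g was found in 2 cells, 0.525% of them, against 0.667% to 0.833% of the 600 kept cells of macrophage-like cluster 4 at a median of 5526 UMIs. After thinning each was left in 1 or 2 of 380 against 0 to 2 of 600 cells, too few to read a difference from. C1qa was at 545 CPM in the lowest, 1748 in the median and 5057 in the highest mouse of high-mitochondrial cells, and at 1124, 1605 and 2519 CPM in kept cells. The classes overlapped, and the high-mitochondrial value was above the kept one in 5 of 8 mice. The C1q genes in the high-mitochondrial cells of cluster 6 lay between those of the named clusters, with 2472 CPM of C1qa against 11518 in cluster 4, 6844 in cluster 5, 494 in cluster 3 and 168 in cluster 8. Summed over 11 monocyte markers, high-mitochondrial cells had 1446 to 5313 CPM and kept cells 1822 to 10739, lower in 8 of 8 mice. The summed 17 macrophage markers ranged from 7513 to 52762 against 10401 to 24789 CPM, higher in 5 of 8 mice. Markers of other cells that the sort could hold were also summed. The neutrophil markers, with Retnlg, Cxcr2 and Ly6g at 0, came to 99.7 to 1018 against 82.5 to 431 CPM and were higher in 7 of 8 mice (345 against 252 CPM pooled). The B and plasma cell markers came to 192 to 32759 against 89.7 to 13117 CPM and were higher in 3 of 8 mice. They had a UMI in 167 high-mitochondrial cells. Pooled, they came to 7716 against 6194 CPM, of which Jchain alone gave 7530 and 6042 CPM. The part of these other cell types in the results below was not tested. Of 9 epithelial markers Krt19, Fabp2, Car1, Slc26a3 and Phgr1 were at 0, and of 4 mast cell markers only 1 had a UMI. Jchain, the joining chain of antibodies, had a UMI in 158 cells (41.5%, against 65.3% of kept cells of cluster 4). After thinning these shares were 24.5% and 11.3%, so their order depended on depth. A single cell held 2192 of the 4057 Jchain UMIs. YFP, as EYFP, had 23 UMIs in 19 cells.

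Non-mitochondrial genes were compared between high-mitochondrial and kept cells on the non-mitochondrial UMIs summed per mouse and class, in the 6 mice with at least 20 cells of each (control mice 1, 2 and 4, cKO mice 6, 7 and 8). Mice 3 and 5, with 13 and 11 high-mitochondrial cells, were left out of these fits. In such sums, fewer cells of a type and less RNA per cell cannot be told apart. The edgeR quasi-likelihood test with TMM scaling called 444 genes higher (3.92% of 11325 tested) and 1928 lower (17%) at a false discovery rate of 5%. This split depended on the scaling: the median log2 difference of all genes was -0.39 with TMM, 0.11 with plain totals and 0.10 with the size factors of DESeq2, which called 792 genes higher and 600 lower, while plain totals gave 1204 and 607. Directions are therefore given for the genes called the same way under all 3 scalings, 417 higher (3.68%) and 523 lower (4.62%).

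Most of the nuclear-retained RNAs tested were higher. Of 9, 6 were called higher and 0 lower under all 3 scalings, with a median log2 difference of 0.95 against -0.39 for all genes. Malat1, a long non-coding RNA of nuclear speckles, was at 41020 CPM in the lowest, 52832 in the median and 72025 in the highest of 8 mice in high-mitochondrial cells, and at 13861, 16562 and 21402 CPM in kept cells, so that the classes did not overlap. Its log2 difference was 1.14 ± 0.12 (SE, edgeR with TMM, adjusted p = 8.79e-19), 1.68 with plain totals and 1.53 with DESeq2. Neat1, which builds the paraspeckle, ranged from 914 to 1465 against 453 to 626 CPM, and Xist, which coats the inactive X chromosome, from 1573 to 2374 against 584 to 887 CPM, also without overlap in 8 mice. Gm42418, which overlaps a ribosomal RNA repeat, so that its reads are uncertain, ranged from 545 to 1660 against 159 to 618 CPM and was higher in 8 of 8 mice.

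Malat1 and Xist were also followed across bins of the mitochondrial share, pooled over mice. Malat1 was at 15273 CPM in the 1681 cells of 1% to 2%, 24744 in the 172 of 3% to 4%, 42158 in the 169 of 5% to 7.5% 58917.5 in the 81 of 10% to 15%, 85753 in the 33 of 15% to 20% and 73658 in the 14 above 20%. Xist went from 714 CPM at 1% to 2% to 2485 CPM at 10% to 15%. Neat1 lay between 456 and 497 CPM in the bins up to 4%, at 732 CPM at 4% to 5% and between 1115 and 1562 CPM from 5% to 20%, and was at 903 CPM above 20%. Ppia, the cytosolic cyclophilin A, went from 1035 to 308 CPM between the bins of 1% to 2% and 10% to 15%. The proportion of cells in cluster 6 went from 3.15% to 69.1%, and the median of non-mitochondrial UMIs from 5723 to 913 between the same bins, so that depth and cluster moved with the share across these bins, and their part in the levels was not tested there.

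**Figure D4:**
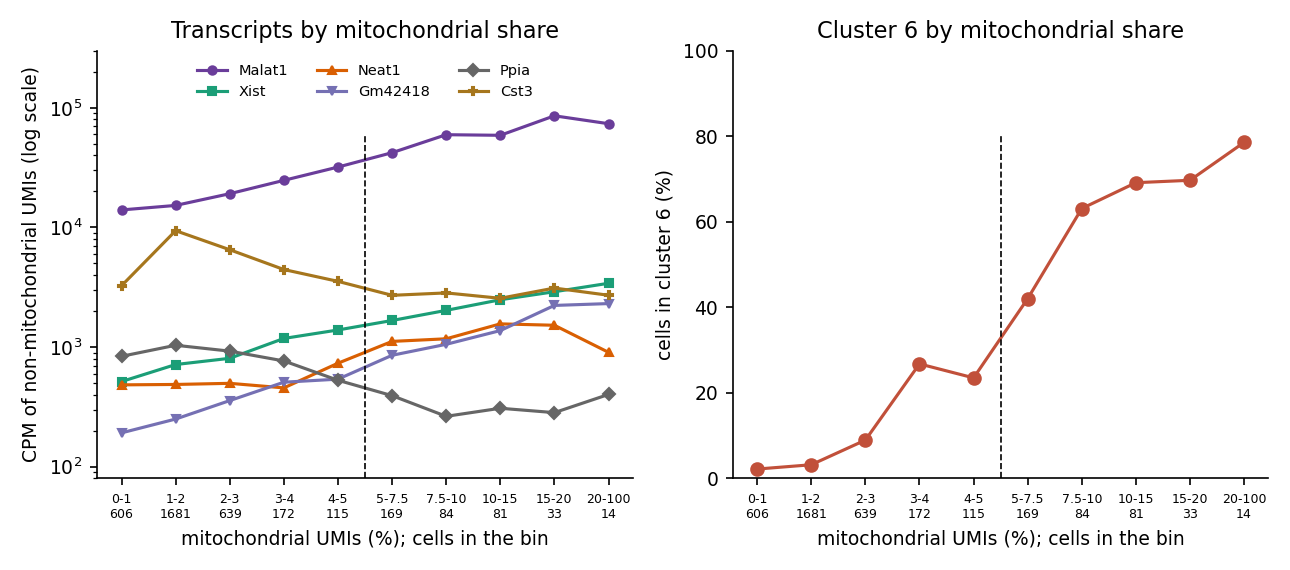
Left, level of 6 transcripts (y axis, CPM of non-mitochondrial UMIs, log scale), and right, proportion of cells in cluster 6 (y axis, percent), in bins of the mitochondrial share of single cells pooled over mice (x axis, with the number of cells per bin). The dashed line is the 5% limit. Malat1, Xist and Gm42418 are higher and Ppia lower on its right side, and the proportion of cluster 6 runs from 2.15% to 78.6%.

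The 12 largest rises that passed the rule for naming were Cebpb, Atp13a2, Tmem259, Clptm1l, Dusp2, Gm47283, Htt, Ccdc88b, Gdap10, Jund, Ppp1r12c and Pnrc1, all called under all 3 scalings. Cebpb, a transcription factor of myeloid cells, was at 150, 312 and 528 CPM in the lowest, median and highest mouse against 23.3, 44.5 and 74.4 CPM in kept cells, and its log2 difference was 2.28 ± 0.20 (SE, edgeR, adjusted p = 2.06e-26). Dusp2, a nuclear phosphatase of MAP kinases, was at 140, 379 and 524 against 34.4, 65.9 and 107 CPM (1.87 ± 0.19 on the log2 scale, edgeR adjusted p = 7.86e-20). Jund, a subunit of the transcription factor AP-1, was at 188, 230 and 297 against 31.2, 50.3 and 69.5 CPM. For these 3 genes no high-mitochondrial sum overlapped a kept one in the 6 mice. Of the 12, Cebpb, Tmem259, Dusp2, Gm47283 and Jund were also leading genes of cluster 6, which made up 56% of high-mitochondrial and 6.29% of kept cells. Within the same mouse and cluster, described below, Atp13a2, Ccdc88b, Gm47283 and Dusp2 were higher with TMM (log2 differences of 2.04, 1.90, 1.80 and 0.92). They did not hold there under all 3 scalings.

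Genes of the immediate early response were divided. Of 21 tested, 7 were higher and 1 lower under all 3 scalings, with a median log2 difference of -0.07 against -0.39 for all genes. Beside Dusp2 and Jund, Ier5 (240 to 506 against 88.7 to 111 CPM) and Fosb (646 to 1090 against 203 to 361 CPM) were among those higher. Of 40 cell death genes tested, 3 were higher and 2 lower, where 3.68% of all genes tested were higher and 4.62% lower. Mcl1, an inhibitor of apoptosis with a short-lived mRNA, was at 569 to 1240 against 186 to 389 CPM and higher, and Casp6, an executioner caspase, was lower with 13 UMIs. Of 16 heat shock genes Hsph1 was higher and Hspa8 lower, and the other 14 did not pass under all 3 scalings.

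Transcripts of the cytoskeleton and the cytosolic ribosome were among those lower. All 16 genes of the actin and thymosin list were called lower with TMM and 11 under all 3 scalings, with a median log2 difference of -1.12 with TMM and -0.59 with plain totals, against -0.39 and 0.11 for all genes. Tmsb4x, thymosin beta 4, which binds actin monomers, was at 11890 to 16343 CPM against 21092 to 32882, and Actg1, gamma-actin, at 948 to 1348 against 1870 to 2701 CPM. Neither overlapped, and their log2 differences were -1.42 ± 0.12 and -1.66 ± 0.14 (SE, edgeR, adjusted p = 1.64e-27 and 1.08e-27). Of 82 genes of cytosolic ribosomal proteins 19 were lower and 0 higher under all 3 scalings, among them Rpl23a (894 to 1217 against 1556 to 2016 CPM). Ppia was at 210 to 423 against 715 to 1147 CPM, and Cst3, cystatin C, at 1257 to 3593 against 3251 to 13036 CPM. The last overlapped between mice, but it was lower in 6 of 6 (Ppia and Cst3 were chosen after their values were seen).

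Among the listed nuclear genes for mitochondrial proteins, 0 were higher under all 3 scalings. The mitochondrially encoded genes were high by the selection itself, so they give no result to compare these with. Of 93 nuclear-encoded respiratory chain genes, 0 were higher and 20 lower under all 3 scalings, with a median log2 difference of -0.77 with TMM and -0.24 with plain totals. Cycs, cytochrome c, was at 93.9 to 291 against 289 to 453 CPM (-1.59 ± 0.19, SE, edgeR adjusted p = 4.08e-14), and Atp5c1, a subunit of ATP synthase, at 205 to 294 against 402 to 526 CPM. Over all genes tested, 3.68% were higher and 4.62% lower under all 3 scalings. Of 78 genes of the mitochondrial ribosome 0 were higher and 7 lower. For 22 import and chaperone genes the counts were 0 and 4 (Timm23, Tomm22, Tomm20, Timm8b). For 19 genes of mitophagy and mitochondrial dynamics they were 0 and 2 (Gabarap, Bnip3l). None of 26 genes for mitochondrial transcription and RNA handling was called in either direction under all 3 scalings; with TMM alone Hsd17b10 was lower, 1 of the 26.

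Genes of proliferation and antigen presentation were also among those lower. Of 20 proliferation genes 12 were lower and 0 higher, with Hmgb2 at 34.1 to 109 against 193 to 572 CPM and H2afz at 392 to 681 against 943 to 1523 CPM. Xcr1 had 3 UMIs in high-mitochondrial cells, 0.103 times its kept level (95% counting interval 0.0212 to 0.302). Cd24a, at 17.5 to 59.8 against 67.3 to 379 CPM, was among the 12 largest falls, but its log2 difference of -2.91 became 0.23 (adjusted p = 0.817) without clusters 1, 7 and 8 and 0.12 (adjusted p = 0.913) among cells of at most 2000 UMIs. The other falls named by size were Plscr1, with 6 UMIs, and Qpct, Tipin, Nrm, Eif2b1, Jpt2, Chchd4, Nfyb, Gna15, Gm9830 and Uchl4, with 2 or 3 UMIs each and a ratio between 0.11 (Qpct, 95% counting interval 0.0133 to 0.4) and 0.206 (Uchl4, 0.0423 to 0.606). Of 9 genes of MHC class II, which presents peptides to helper T cells, 4 were lower and 0 higher, H2-Aa among them (2846 to 8231 against 4803 to 11257 CPM). Of 38 interferon response genes 1 was higher and 5 lower, and of 24 genes of endoplasmic reticulum stress 1 and 6. For 17 glycolysis genes the counts were 1 and 3, and for 23 lysosome genes 1 and 0. The shares over all genes tested were 3.68% and 4.62%.

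The called genes differed in the length of their annotated transcripts. The longest transcript in GENCODE vM21 had a median of 4925 bases for the 417 higher genes, 1896 for the 523 lower ones and 3251 for all tested genes. The median number of exons was 12, 6 and 9, and the median GC content 51.6%, 47.9% and 49.4%. All members of both sets had an annotation, and these medians are a description.

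Within the same mouse and cluster the comparison could be made in 5 pairs of sums, cluster 6 in mice 1, 2, 4 and 6 and cluster 2 in mouse 7. With TMM, 59 genes were higher (1.13% of 5215) and 237 lower (4.54%), with plain totals 132 and 106, and 31 (0.594%) and 62 (1.19%) under all 3 scalings. Malat1 was at 57308 to 69317 CPM against 17164 to 33984 CPM, without overlap, and its log2 difference was 1.17 ± 0.12 (SE, edgeR with TMM, adjusted p = 2.39e-19). Of the 6 nuclear RNAs tested 4 were higher, Malat1, Gm42418, Neat1 (1268 to 1822 against 407 to 838 CPM) and Xist, and 0 lower. Tmsb4x was at 8326 to 18116 against 19351 to 32736 CPM, and 3 of 16 actin and thymosin genes, 9 of 80 cytosolic ribosomal protein genes and 1 of 83 respiratory chain genes (Atp5j) were lower under all 3 scalings, with 0 higher. C1qc was lower in 5 of 5 pairs (-0.79 ± 0.17, SE, edgeR adjusted p = 0.000466), while C1qa and C1qb did not pass, with log2 values of -0.30 and -0.31. Of the 12 largest rises, Safb2 (which binds nuclear matrix and RNA), Map4k4, Hsph1, H2-Q6 and Chka held under all 3 scalings, and Itgb7, Atp13a2, Nxf1 (the main mRNA export receptor), Ccdc88b, Gm47283, Smg1 and Ccdc50 did not, as DESeq2 gave them no adjusted p. The 12 largest falls were Cd37, Cklf, Bnip3l, Ormdl2, Tmco1, Gm5160, Slc31a1, Cnih4, Gm6525, Apex1, Dnajc2 and Mcts1, with 1 to 7 UMIs each, and 0 of them held under all 3. Laptm5, a lysosomal membrane protein, was higher (1344 to 1753.5 against 647 to 781 CPM) and Ctss, cathepsin S, lower (1523 to 2644 against 2407 to 4655 CPM). Fos was lower and Fosb higher, as the only 2 of 21 immediate early genes to hold. The number of genes called with TMM was 164 without control mouse 1, 189 without control mouse 4 and 165 without cKO mouse 7.

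The conditions were compared in the high-mitochondrial cells of the same 6 mice. The test called 11 genes higher in cKO (0.345% of 3190) and 7 lower (0.219%), and 10 (0.313%) and 5 (0.157%) under all 3 scalings. Of those higher, Irf7, Isg15, Ifi205, Oas1g and Oas1a belong to the interferon response list. Irf7, the transcription factor that amplifies the interferon response, was at 59.8, 49.9 and 185 CPM in control mice 1, 2 and 4 and 859, 838 and 545 CPM in cKO mice 6, 7 and 8 (log2 difference 2.86 ± 0.40, SE, edgeR adjusted p = 0.00134). Isg15, a ubiquitin-like modifier, was at 85.4, 69.8 and 185 against 502, 960 and 783 CPM (2.61 ± 0.37, edgeR adjusted p = 0.00134). Ifi27l2a was at 1358, 868 and 1973 against 6449, 6809 and 6148 CPM (2.11 ± 0.26, edgeR adjusted p = 0.000486). The groups did not overlap for any of these, and the left-out mice 3 and 5, with 0 and 415 CPM of Irf7, lay on the side of their group. Ifi205, Ifi211, Oas1g, Oas1a, Slfn4, H2-Q6 and Ly6c2, a marker of monocytes, were also higher, as was Ifi213 with TMM. Of 21 interferon response genes tested 5 were higher and 0 lower, with a median log2 difference of 1.62 against -0.04 for all genes. The number of genes called in both directions, 18, depended on single mice: it was 5 without control mouse 1, with 0 lower among them, 7 without control mouse 2, 121 without control mouse 4, 10 without cKO mouse 6, and 7 without cKO mouse 7 and without cKO mouse 8 alike.

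The sequences of 2 of these promoters are given because the genes were higher together. Of the 11 genes higher in cKO, 10 matched the RefSeq promoter table (GRCm38.p6, 250 bases before to 50 after the start), and in 6 of them the letters GAAANNGAAA or their reverse complement occurred, as they did in 3.44% of all 32851 promoters. Among the 6, Ifi205 and Ifi211 were nearly alike around a match, as were Oas1a and Oas1g, so the 6 are not independent. The matches are in capitals and are a description, not a site. They lie on the minus strand, Isg15 at chr4:156200769-156201068 with 3 overlapping matches and Oas1a at chr5:120907476-120907775 with 2.
Isg15: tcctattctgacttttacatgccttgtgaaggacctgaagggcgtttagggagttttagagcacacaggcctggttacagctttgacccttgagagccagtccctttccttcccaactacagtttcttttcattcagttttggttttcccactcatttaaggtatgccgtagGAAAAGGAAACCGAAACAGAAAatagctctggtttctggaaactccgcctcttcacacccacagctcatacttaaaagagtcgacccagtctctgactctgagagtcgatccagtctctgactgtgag
Oas1a: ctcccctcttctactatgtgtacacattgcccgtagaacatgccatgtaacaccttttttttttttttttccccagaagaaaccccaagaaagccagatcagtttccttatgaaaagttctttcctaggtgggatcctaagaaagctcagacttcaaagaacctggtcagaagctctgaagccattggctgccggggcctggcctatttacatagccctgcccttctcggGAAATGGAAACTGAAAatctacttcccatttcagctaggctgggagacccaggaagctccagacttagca

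The genes lower in cKO under all 3 scalings were C1qc, Cd81, Tmem176a, H2-Eb1 and H2-Aa. Of 14 macrophage markers tested 2 were lower and 0 higher under all 3 scalings (median log2 difference -1.57), and of 8 genes of MHC class II 2 and 0 (median -1.07), against a median of -0.04 for all genes. C1qc was at 2843, 3431 and 937 CPM in control mice 1, 2 and 4 and 766, 611 and 358 CPM in cKO mice 6, 7 and 8 (-2.16 ± 0.40 on the log2 scale, SE, edgeR adjusted p = 0.0116). H2-Eb1 was at 9409, 9874 and 6190 against 4255, 3701 and 3082 CPM (-1.32 ± 0.24, edgeR adjusted p = 0.0116), and H2-Aa at 8231, 7909 and 5155 against 3951, 2846 and 3542 CPM. Apoe and Nxpe5 were lower with TMM but not under all 3 scalings. Macrophage-like cluster 4 averaged 9.58% of the high-mitochondrial cells of the 4 control and 0.544% of those of the 4 cKO mice, which did not pass (exact permutation p = 0.0571, adjusted p = 0.514). In the mice of the fit it held 8 of 84, 10 of 51 and 1 of 67 such cells in control mice 1, 2 and 4. In cKO mice 6, 7 and 8 it held 0 of 61, 0 of 48 and 1 of 46. The part of this make-up in the gene differences was not tested. Within the high-mitochondrial cells of cluster 6, the mean of C1qc was 1527 in the 3 control and 750 CPM in the 3 cKO mice, that of H2-Eb1 7836 and 4252, that of Irf7 48.7 and 651, and that of Isg15 127 and 369, each without overlap. The fold of Isg15 was 2.9 in cluster 6 and 6.6 over all high-mitochondrial cells. Ly6c2, Cd81, Apoe, Oas1g, Oas1a and H2-Q6, which did not overlap over all high-mitochondrial cells, overlapped between conditions within cluster 6. Slc3a2, which encodes CD98hc, was at 290, 379 and 752 CPM in control and 423, 332 and 579 CPM in cKO mice (edgeR adjusted p = 0.919), and its 3' reads lie outside the deleted part, so they do not check the deletion.

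**Figure D5:**
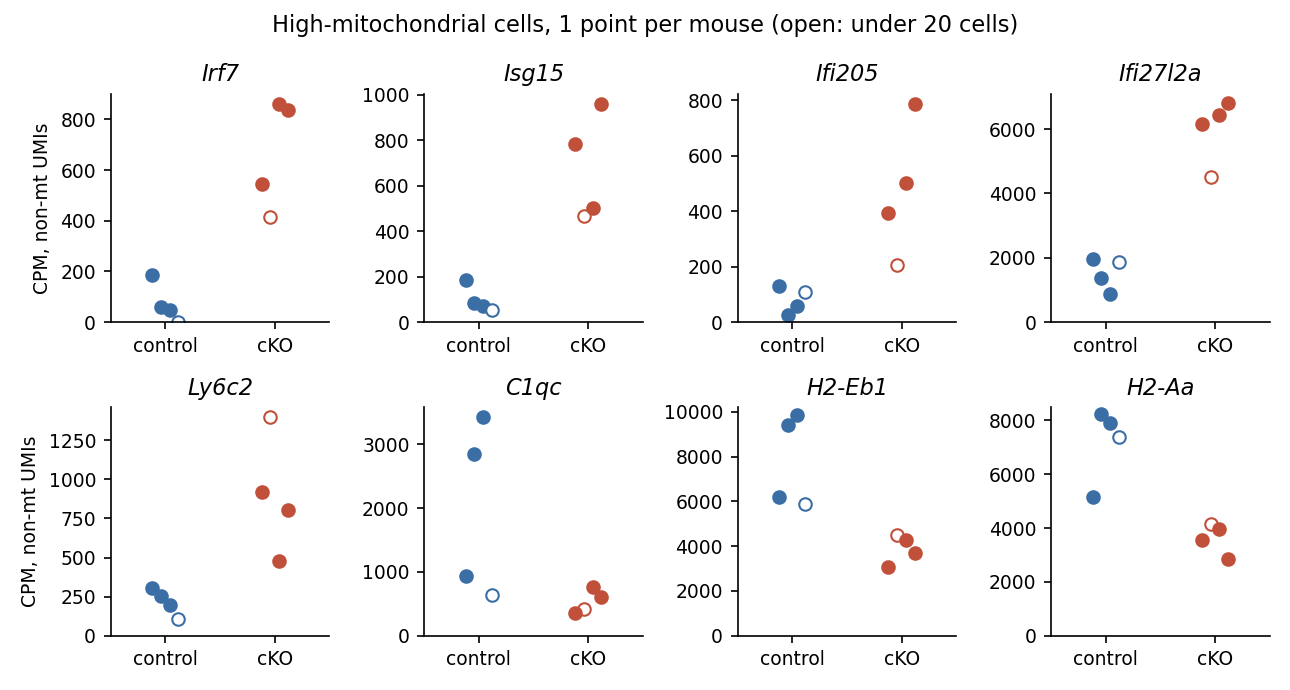
Level of 8 genes (y axis, CPM of non-mitochondrial UMIs, linear from 0) in the high-mitochondrial cells of each mouse (1 point per mouse; blue control, red cKO; open points are mice 3 and 5, with under 20 such cells, which were not in the fit). Irf7, Isg15, Ifi205, Ifi27l2a and Ly6c2 are higher in all 4 cKO than in all 4 control mice, and H2-Eb1 and H2-Aa lower, while C1qc overlaps once mouse 3 is included.

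The difference between the conditions was then set against that in the kept cells of the same mice. The interaction passed for 4 genes upward (0.0353% of 11325) and 19 downward (0.168%) with TMM, and for 1 gene, Ly6c2, downward under all 3 scalings (0.00883%). With TMM the total of 23 was 12 without control mouse 2, 36 without cKO mouse 6, 14 without cKO mouse 7 and 12 without cKO mouse 8, and with plain totals it was 6 upward and 10 downward. Ly6c2 was higher in cKO in both classes, at 256, 199 and 305 against 476, 803 and 920 CPM in high-mitochondrial cells and 201, 177 and 259 against 1323, 2045 and 1822 CPM in kept cells, so that its rise was smaller among the former (interaction -1.75 ± 0.31 on the log2 scale, SE, edgeR adjusted p = 4.3e-05). For Irf7, Isg15 and Ifi27l2a the interaction did not pass. Their fold of mean levels was 7.6, 6.6 and 4.62 in high-mitochondrial and 7.56, 6.21 and 4.76 in kept cells. For Oas1g and Oas1a it was 4.81 and 3.29 against 4.65 and 4.14. The folds differed more for Ifi205 (7.77 against 1.88), Ifi211 (6.12 against 2.06) and Slfn4 (83.7 against 14.1). Slfn4 was at 0 in the high-mitochondrial cells of control mice 2 and 4. The interaction of Ifi205 passed with TMM (1.89 on the log2 scale, edgeR adjusted p = 0.00108) but not under all 3 scalings.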

How the data were processed

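Cells of 8 mice were measured by droplet 3' RNA-seq. Per the labels, the authors aligned the reads with Cell Ranger and STAR 2.5.3a (R 3.5.0 for later steps) to mm10 with EYFP added, and deposited 1 table of UMI counts of all libraries, aggregated without equalising depth. The mouse was read from each column name, and no column lacked a mouse. Total UMIs of the high-mitochondrial cells of a mouse ran from 20556 to 129150, and those of kept cells from 497531 to 3762314, so levels in high-mitochondrial cells, and in mice 3 and 5 most of all, are the less precise. Intervals and limits cover counting error only.

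Cells were clustered on non-mitochondrial counts into 9 clusters (scran 1.30.0, 11215 genes, 9 components). Doublet calls, 1 of 381 high-mitochondrial and 33 of 3213 kept cells, stayed in (scanpy 1.11.5). Non-mitochondrial UMIs were summed per mouse, class and, where stated, cluster, for sums of at least 20 cells. Genes over 1 CPM in at least 3 sums and with a UMI in at least 20 cells were tested with the quasi-likelihood test of edgeR 4.0.16 (R 4.3.3, TMM scaling, mouse as block where the classes were compared, Benjamini-Hochberg false discovery rate 0.05). Plain totals (added after seeing the data) and DESeq2 1.42.0 were the other scalings. Single values were compared with exact permutation tests over 70 arrangements of mice, or sign-flip tests within mice (smallest p 0.0078), using scipy 1.17.1, 2-sided. The scripts were tested on simulated data. The 4 mice of a group were separate animals.

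Genes were named by a rule: the mitochondrial genes, the C1q, Hp, Chil3, Xcr1, Flt3, Cd3 and Dcn markers, Slc3a2 and EYFP, up to 4 members of each list with the lowest p, and, per comparison, the 12 largest rises and 12 largest falls past the threshold, seen in at least 10% of cells of the higher class and in the same direction in every mouse. The members and lists were chosen with earlier results of these data known.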

Additional observations from a re-analysis of the deposited data

Results flagged for a closer look

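Among 50 groups of 4 mice examined for a mouse that stands apart, 4 held one, where chance gives about 1 in 20. Control mouse 2 had a median of 1497 non-mitochondrial UMIs per high-mitochondrial cell, above the other control mice (1103 to 1159). In control mouse 3, with 13 high-mitochondrial cells, mt-Co2 gave 11.8% of mitochondrial UMIs, against 9.08% to 9.46% in the others. Hp was at 49.9 CPM in the high-mitochondrial cells of control mouse 2 and at 256 to 268 CPM in the other control mice. In cluster 4 the high-mitochondrial share was 1.39% in cKO mouse 8 and 0 in the other cKO mice, from a single cell.

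For 18 genes named by the rule the condition difference in high-mitochondrial cells and that in kept cells differed and are listed here by the interaction on the log2 scale (edgeR with TMM). Only Ly6c2 (-1.75) was called under all 3 scalings. Negative values were fitted for Gm15056 (-11.66) and Fbln1 (-8.75), which had 0 UMIs in high-mitochondrial cKO cells, so that these sizes depend on the fit and are no bound. Saa3 (-3.05), Jchain (-3.04) and Dcn (-2.73) rested in part on single cells, since 1 control cell held 223 of 331, 2192 of 3612 and 106 of 151 of their UMIs. In Mmp13 (-2.25), Ly6d (-2.08) and Slpi (-1.63), 1 control cell held 54 of 142, 20 of 31 and 59 of 91 UMIs, and 1 cKO cell 17 of the 18 UMIs of Ly6d. The other negative values were those of Ecm1 (-1.44), Tmem176a (-1.39), Wfdc17 (-1.36), C1qc (-1.30) and C1qa (-1.05). Positive values were those of Ccl8 (1.36), Ifi205 (1.89), Retnla (2.33), of which 1 cKO cell held 29 of 32 UMIs, and Hist1h2ap (5.26), the last with 1 and 8 UMIs in control and cKO high-mitochondrial cells.

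Of the 2346 barcodes below the UMI or gene minimum, which no comparison used, 1406 (59.9%) exceeded 5% mitochondrial UMIs, with a median of 258 UMIs in all 2346.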

How the results depend on the processing

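The difference in the high-mitochondrial share between conditions, 0.369 percentage points, was -0.294 at a limit of 10%, -0.98 over all barcodes, and -0.825 to 1.15 with 1 mouse left out, and never passed. The excess in cluster 6, 45.9 points, was 38.9 with graph clustering (adjusted p = 0.0508), 37.8 without the genes called between conditions, 21.5 with kept cells clustered alone and 44.2 to 47.5 with 1 mouse left out, where the adjusted p was up to 0.0563 once 6 mice remained. With 12 clusters, cluster 3 was at 4.68. The 2372 genes called between the classes became 1392 with DESeq2, 685 over 10%, 1036 after thinning to 500 UMIs, 971 at no more than 2000 UMIs, and 1905 to 2071 with 1 mouse left out. Plain totals gave 1204 higher and 607 lower. Within clusters the 296 genes became 101 with DESeq2, 188 without the low-count filter, 1385 with kept cells clustered alone, 891 with sums of at least 10 cells, and 164 to 259 with 1 mouse left out, and plain totals gave 132 higher and 106 lower. Between conditions the 18 genes became 79 without the filter, 30 with sums of at least 10 cells, 5 to 121 with 1 mouse left out, and 0 over 10% by edgeR (17 at an unadjusted p under 0.05, of 374 tested). The 23 interactions became 1 with DESeq2 and 12 to 36 with 1 mouse left out, and plain totals gave 6 upward and 10 downward. Where a count changed, the cause was not tested.

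Direction turned for single genes as follows. Between the classes Cd24a was 0.12 at no more than 2000 UMIs and 0.23 without clusters 1, 7 and 8, Chil3 0.058 and Dcn 0.80 under the same settings in turn, C1qc 0.12 with plain totals, C1qb 0.13 with DESeq2 and 0.29 with plain totals, and C1qa 0.18, 0.37, and 0.10 without the replicate block, with -0.29 to 0.10 when 1 mouse was left out. Within clusters C1qb was 0.042 and Chil3 -0.21 with graph clustering, C1qa -0.55 (without cKO mouse 6) to 0.057 (without cKO mouse 7), and Hp 0.50 with DESeq2, 0.065 with plain totals, 0.85 with kept cells clustered alone and -0.59 (without cKO mouse 6) to 0.94 (without cKO mouse 7). Between conditions Slc3a2 was -0.42 to 0.31 with 1 mouse left out and 0.072 after thinning. In the interaction Retnla was -1.19 (without cKO mouse 8) to 4.11 and Slpi -2.60 to 0.48 (without control mouse 4).

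No paired analysis was possible between conditions because control and cKO mice share no replicate number. The comparison of classes had the mouse as a block, and without this replicate block 1870 genes were called (333 higher, 1537 lower). The added settings (no more than 2000 UMIs, clusters left out, sums of at least 10 cells within clusters, barcodes in 2 wells, plain totals) were chosen after seeing the data.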
